A study of Homo sapiens with 12 samples.

Results

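HepG2 cells that had been exposed to 0.001 µM 2,4-D for 360 min were compared with HepG2 cells exposed to the same dose for 30 min. The members are the 3 libraries titled for each of these times, 6 of the 12 libraries of the series, and the untreated 0 min libraries do not enter. HepG2 is an established human liver cancer line that keeps many hepatocyte functions, and 2,4-D (2,4-dichlorophenoxyacetic acid) is a herbicide that mimics the plant hormone auxin. Both groups carried the agent at 1 dose in 1 cell line, and no untreated library of 30 or 360 min was analysed here. Time in exposure, time in culture and anything done to the dishes between 30 and 360 min therefore cannot be told apart. Polyadenylated RNA was sequenced from cells detached with trypsin, and the deposited table gives whole read counts per gene.

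As background, the transcriptional response of a cell to any disturbance has an early and a late side. Immediate early genes are switched on within minutes from factors already present, and their short-lived mRNAs are gone within hours, while feedback inhibitors, chaperones, metabolic enzymes and cell cycle genes move on a scale of hours. In hepatocyte-like cells the same hours hold the response to nutrients through mTORC1, FOXO and the sterol sensor SREBP2, the response to xenobiotics through the aryl hydrocarbon receptor (AHR), and the BMP-SMAD axis that controls ID genes and hepcidin. The comparison of 360 with 30 min sets a later time against an earlier one, and whether either time holds such a response was not tested.

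Of 18172 genes with enough counts to test, 3978 differed between 360 and 30 min (edgeR quasi-likelihood test, Benjamini-Hochberg adjusted p under 0.05), which is 21.9% of those tested. At 360 min 2010 genes were higher (11.1%) and 1968 were lower (10.8%). The changes were mostly small: the median absolute log2 fold change of the called genes was 0.281, and 82 genes rose and 140 fell by at least 2-fold. Among genes that moved by at least 0.5 on the log2 scale, 335 were higher and 533 lower, so that larger changes leaned downward (38.6% higher) where all calls were split evenly (50.5% higher). Without 360 min replicate 1 the count of calls was 2549 and without 360 min replicate 2 it was 2624. Calls were more frequent among abundant genes, at 33.6% of the 4543 most abundant against 5.66% of the 4543 least abundant, and 27.1% of protein-coding genes but 8.28% of antisense genes were called. In 39.6% of tested genes the 3 libraries of each time did not overlap (19.3% higher and 20.3% lower at 360 min).

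**Figure D1:**
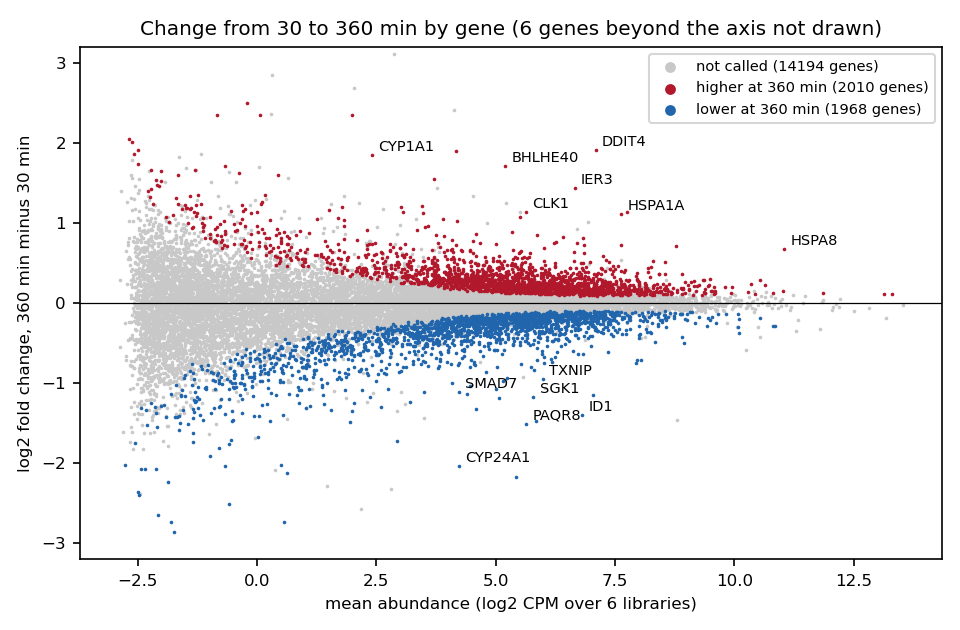
Log2 fold change of 360 min against 30 min (vertical axis) against mean abundance in log2 CPM (counts per 1000000 counts of the library) over the 6 libraries (horizontal axis), 1 point per gene. Red points are the 2010 genes called higher at 360 min, blue the 1968 called lower and grey the rest, and 6 genes beyond the axis are not drawn. Called genes lie on both sides of 0 at all but the lowest abundances, with DDIT4, BHLHE40 and CYP1A1 among the named rises and CYP24A1, PAQR8 and ID1 among the named falls.

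The 6 libraries held 33439181 to 83539763 counts, and values below are TMM-scaled CPM, which are not scaled by gene length and so compare a gene with itself across libraries only. Mitochondrial transcripts took a share of the counts that did not follow the times: 4.07% and 3.84% in 30 min replicates 2 and 3 and 3.99% in 360 min replicate 3, against 2.52% to 2.74% in the other three libraries. Of the 3978 called genes, 3977 moved in the same direction among the libraries with the high share and among those with the low share. Of all 18172 tested genes, 13184 did so. The calls were made from these same 6 libraries, so the agreement of called genes is largely fixed in advance and is not a separate check. All 14 hepatocyte and hepatoma markers were measured, and their summed level was 36200 to 36400 CPM at 30 min and 36800 to 37700 CPM at 360 min. Of these 14, 6 were called higher and 3 lower, between -0.30 (KRT18) and 0.53 (FOXA2) on the log2 scale. Of markers of other cells, 2 of 8 fibroblast, 2 of 6 endothelial and 5 of 8 blood genes passed the filter on low counts. The fibroblast genes COL1A1, COL3A1 and DCN and the endothelial gene VWF did not pass it, and the blood cell gene PTPRC is listed at 0. INSIG1, IRS2, ME1 and CXCL1 are listed at 0 in every library as well, and a listed 0 is not read here as absence of the RNA. Of the markers that passed, ACTA2 was called higher (0.25 ± 0.038) and the low CDH5 lower (from 0.213, 0.29 and 0.281 CPM to 0.0878, 0 and 0.0634 CPM), a call of CDH5 that was lost with the replicate block and on omission of any 30 min library or of 360 min replicate 3. Their part in the results was not tested. Among the blood genes LYZ carried nearly all of the level, at 1835, 1863 and 1790.1 CPM at 30 min and 1869.7, 1784 and 1788 CPM at 360 min, with overlapping groups.

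The largest rise of an abundant gene was that of DDIT4, whose protein (REDD1) restrains mTORC1 through the TSC complex. DDIT4 (chromosome 10, 72273920 to 72276036) stood at 60.03, 57.5 and 53.8 CPM in the 30 min replicates and at 224, 213 and 209 CPM in the 360 min replicates. The groups were far apart, and the log2 fold change was 1.91 ± 0.047 (SE, n = 3 per time, edgeR adjusted p = 1.47e-07), or 3.77-fold. DDIT4-AS1, annotated on the opposite strand of the same locus, moved by 1.89 ± 0.072, and with strand unknown the counts of both may share reads. BHLHE40 (chromosome 3, 4979116 to 4985323), a transcriptional repressor of the clock and of the hypoxia response, was at 17.9, 18.4 and 15.1 CPM at 30 min and 56.6, 55.9 and 57.01 CPM at 360 min. That rise was 1.71 ± 0.067 (edgeR adjusted p = 2.28e-06) with the times far apart. CYP1A1 (chromosome 15, 74719542 to 74725610), the monooxygenase used as a readout of AHR, was low at both times but higher in every 360 min library: 2.37, 2.35 and 2.22 CPM at 30 min and 8.44, 8.68 and 7.897 CPM at 360 min, a change of 1.84 ± 0.10 (edgeR adjusted p = 1.17e-05). IER3, an immediate early gene that modulates apoptosis, was at 54.2, 58.1 and 50.5 CPM at 30 min and 141, 141 and 157 CPM at 360 min (1.43 ± 0.06, edgeR adjusted p = 3.24e-06). Its antisense partner IER3-AS1 moved by 1.21, again with strand unknown.

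Other large rises belonged to regulators of splicing, survival and the cell cycle. CLK1, a kinase that phosphorylates SR splicing factors, went from 29.8, 31.7 and 31.4 CPM to 67.1, 71.2 and 65.7 CPM (1.14 ± 0.045). RSRP1, an arginine- and serine-rich protein gene, went from 31.3, 27.7 and 28.7 CPM to 64.9, 65.5 and 54.8 CPM (1.08 ± 0.075). CCNG2, an antiproliferative cyclin and a FOXO target, went from 5.01, 5.56 and 5.06 CPM to 11.5, 10.8 and 11.99 CPM (1.13 ± 0.086). In all of these the 2 times did not overlap. BIRC3, an inhibitor of apoptosis induced by NF-kB, rose by 1.20 ± 0.10 from 4.87, 4.57 and 5.48 CPM to 11.1, 12.5 and 10.7 CPM, and BTG2, an antiproliferative gene induced by p53, by 1.12 ± 0.093 from 6.41, 7.41 and 7.11 CPM to 14.3, 14.4 and 16.8 CPM. CYP3A7, the fetal liver P450, rose by 1.06 ± 0.13, the adhesion gene NECTIN4 by 1.06 ± 0.14, and the pseudogene HSD17B7P2 by 1.21 ± 0.075. AL117339.4, a gene model that overlaps HSD17B7P2 on the same strand, rose by 2.34 ± 0.16 and cannot be counted apart from it with certainty.

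Not every entry among the 20 largest rises rested on all 3 replicates. The largest of all, AC011511.4 (6.60 ± 1.42), stood at 0.107, 0.029 and 0.0843 CPM at 30 min and 8.44, 13.8 and 0.159 CPM at 360 min, so the size came from replicates 1 and 2, and replicate 3 lay little above the 30 min values. It was not called by limma voom (adjusted p = 0.38) or without 30 min replicate 2 (edgeR adjusted p = 0.0515). SNX22, a sorting nexin gene whose exons overlap PPIB on the other strand, was at 5.36, 7.27 and 7.47 CPM at 30 min and 8.13, 24.2 and 26.5 CPM at 360 min. Its replicate 1 at 360 min lay just above the 30 min values, and the call was lost in 5 of 16 alternatives, among them without 30 min replicate 1 or 2 and without 360 min replicate 2 or 3. MIR3142HG, the host of the microRNA MIR146A, rose by 1.16 ± 0.17 but was not called when all 12 libraries shared 1 fit (adjusted p = 0.11).

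Among the falls, CYP24A1, the vitamin D 24-hydroxylase, had the largest fall of the protein-coding genes among the 20 largest falls, which were limited to a mean log2 CPM of at least 1. CYP24A1 (chromosome 20, 54153449 to 54173973) was at 30.8, 31.4 and 28.1 CPM at 30 min and 6.76, 8.27 and 7.14 CPM at 360 min and fell by 2.04 on the log2 scale (SE 0.082, edgeR adjusted p = 2.35e-06). PAQR8, a membrane progestin receptor (chromosome 6, 52361421 to 52407777), went from 73.2, 69.5 and 77.6 CPM to 24.5, 25.9 and 27.1 CPM (-1.51 ± 0.055). SGK1, a kinase of the insulin and glucocorticoid response, went from 72.2, 77.2 and 79.98 CPM to 33.9, 34.1 and 33.8 CPM (-1.17 ± 0.044), and the 3 values at 360 min were nearly the same. BAHCC1, a chromatin protein gene, fell by 1.19 on the log2 scale from 48.3, 44.8 and 46.3 CPM to 19.8, 20.6 and 20.8 CPM. MIXL1, a homeobox gene of early development, was at 10.6, 12.96 and 15.1 CPM at 30 min and 5.47, 4.85 and 6.01 CPM at 360 min (-1.23 ± 0.14). DEPP1, a FOXO target, fell by 1.299 on the log2 scale, the Groucho corepressor TLE2 by 1.31, the muscle actin ACTA1 by 1.28, the neurexin ligand NXPH3 by 1.35 and SRRM3, a splicing factor of neural exons, by 1.34. EPB41L4A, a FERM domain gene whose exons overlap EPB41L4A-AS1, fell by 1.48 with a wider spread (3.698, 6.88 and 6.41 CPM at 30 min, 1.799, 1.31 and 2.82 CPM at 360 min).

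Non-coding loci were among the falls as well. AC009133.1, an antisense RNA at the MAZ and PRRT2 locus, had the largest fall of the 20: 70.2, 71.8 and 68.8 CPM at 30 min and 14.7, 15.3 and 16.6 CPM at 360 min (-2.18 ± 0.051). Its exons overlap PAGR1, MAZ and PRRT2 on the other strand, and with strand unknown its counts may hold theirs. The lincRNAs AC007493.1 (-1.32 ± 0.058) and LINC01271 (-1.25 ± 0.12) and the antisense RNA ZMIZ1-AS1 (-1.26 ± 0.14) fell without overlap between the times. AC118553.2, a protein-coding model whose exons overlap MFSD14A and SLC35A3, moved by -1.73 ± 0.40 and was not called without 30 min replicate 1 (edgeR adjusted p = 0.0552). The uncharacterised C6orf223 (-1.18) and SH3BP5-AS1 (-1.15) complete the 20. Exons of 14 of the 40 largest rises and falls (35%) overlap an annotated gene on the other strand. Among them are RSRP1 (with RHD and TMEM50A), BHLHE40 (with BHLHE40-AS1), DEPP1 (with RASSF4) and BAHCC1. With strand unknown, their counts may hold reads of the partner.

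**Figure D2:**
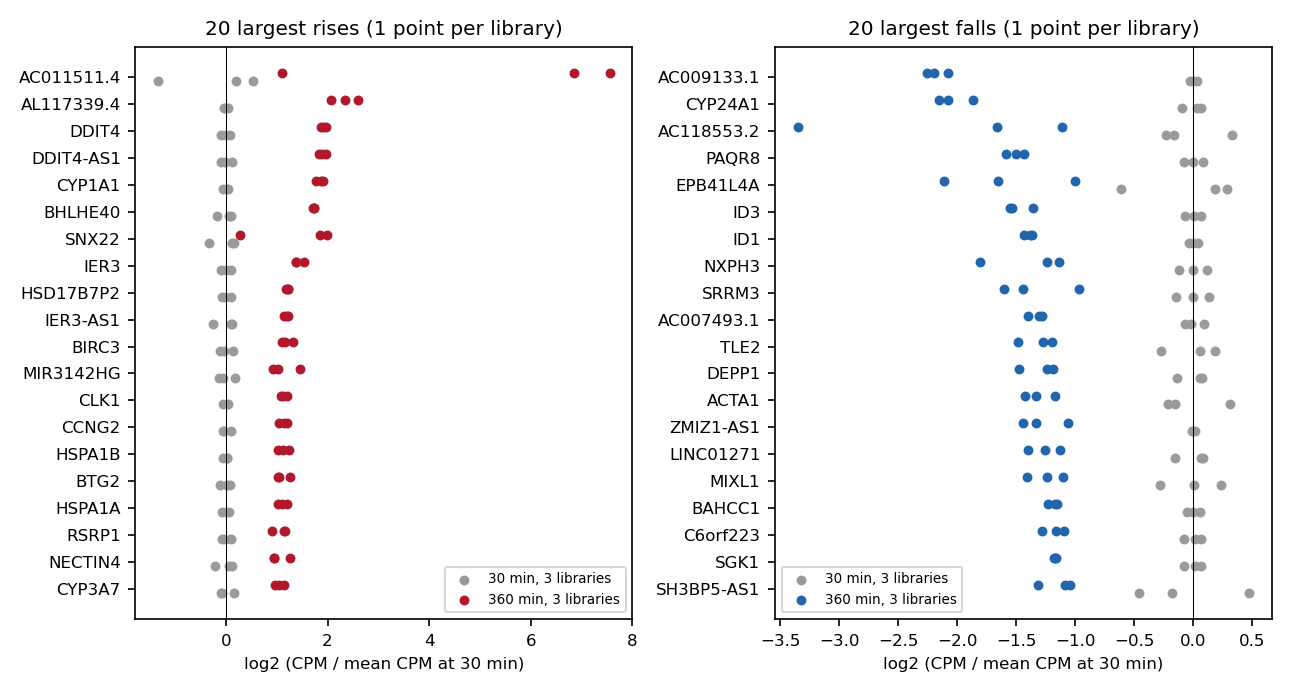
The 20 largest rises (left) and falls (right) among called genes whose times did not overlap and whose mean log2 CPM was 1 or more, as log2 of each library's CPM over the mean CPM at 30 min (horizontal axis). Grey points are the 3 libraries at 30 min and coloured points the 3 at 360 min. Most genes have 3 tight points at each time, while AC011511.4 and SNX22 each have 1 library at 360 min far from the other two and nearer to the 30 min points.

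The promoters of 6 of these genes are shown because results given here turn on these genes. They were picked, after their values had been seen, from those of the 20 largest rises and 20 largest falls that have an entry in the sequence table. Each is the RefSeq window of 300 bases on GRCh38.p14, from 250 bases before to 50 bases after the first listed start site, in the direction of transcription. Capitals mark every match, on either strand, to 1 of 13 motifs: GCGTG (AHR core), TGACGTCA (cAMP response element), its first bases TGACG alone, the AP-1 site TGANTCA, the E-box CACGTG, GAANNTTC (heat shock element core), CCAAT or ATTGG on the other strand (NF-Y box), TTTGAA (the CHR of mitotic promoters), TTTGGCGC and TTTCCCGC (E2F), GGCGCC (BMP-SMAD element), TGACNNNGC (antioxidant element core) and TATAAA (the box bound by TBP). GGCGCC is only a short part of the BMP-SMAD element. Matches can overlap, as TTTGAA and GAANNTTC do in ID1. The first 4 genes rose and the last 2 fell.
DDIT4 (chr10:72273674-72273973, plus strand): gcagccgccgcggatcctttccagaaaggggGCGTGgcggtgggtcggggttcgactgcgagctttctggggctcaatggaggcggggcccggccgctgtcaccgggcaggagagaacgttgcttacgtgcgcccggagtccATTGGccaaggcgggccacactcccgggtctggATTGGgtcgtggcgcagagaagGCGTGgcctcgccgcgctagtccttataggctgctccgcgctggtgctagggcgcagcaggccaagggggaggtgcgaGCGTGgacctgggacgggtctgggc
CYP1A1 (chr15:74725479-74725778, minus strand): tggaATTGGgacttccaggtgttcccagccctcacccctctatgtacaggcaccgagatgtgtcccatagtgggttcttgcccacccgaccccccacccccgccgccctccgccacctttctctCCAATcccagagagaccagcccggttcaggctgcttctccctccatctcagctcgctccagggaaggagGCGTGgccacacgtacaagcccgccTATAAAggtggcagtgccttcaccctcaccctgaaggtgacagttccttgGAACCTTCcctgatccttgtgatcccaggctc
BHLHE40 (chr3:4979187-4979486, plus strand): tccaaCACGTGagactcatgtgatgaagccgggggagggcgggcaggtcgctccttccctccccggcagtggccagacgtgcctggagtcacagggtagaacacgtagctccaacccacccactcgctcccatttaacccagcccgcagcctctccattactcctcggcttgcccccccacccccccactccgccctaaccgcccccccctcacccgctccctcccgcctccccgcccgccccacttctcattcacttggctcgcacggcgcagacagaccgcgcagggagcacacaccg
HSPA1A (chr6:31815293-31815592, plus strand): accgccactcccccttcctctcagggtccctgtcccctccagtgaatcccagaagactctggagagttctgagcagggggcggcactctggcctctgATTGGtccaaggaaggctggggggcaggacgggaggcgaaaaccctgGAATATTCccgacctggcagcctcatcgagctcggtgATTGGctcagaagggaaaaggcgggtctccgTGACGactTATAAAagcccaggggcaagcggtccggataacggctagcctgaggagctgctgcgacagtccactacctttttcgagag
ID1 (chr20:31605039-31605338, plus strand): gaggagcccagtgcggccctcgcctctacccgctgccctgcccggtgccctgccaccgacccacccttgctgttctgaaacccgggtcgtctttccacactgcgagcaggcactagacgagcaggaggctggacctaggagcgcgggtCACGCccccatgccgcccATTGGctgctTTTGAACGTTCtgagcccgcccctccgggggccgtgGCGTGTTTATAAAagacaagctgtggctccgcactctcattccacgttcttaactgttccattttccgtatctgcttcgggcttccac
ID3 (chr1:23559452-23559751, minus strand): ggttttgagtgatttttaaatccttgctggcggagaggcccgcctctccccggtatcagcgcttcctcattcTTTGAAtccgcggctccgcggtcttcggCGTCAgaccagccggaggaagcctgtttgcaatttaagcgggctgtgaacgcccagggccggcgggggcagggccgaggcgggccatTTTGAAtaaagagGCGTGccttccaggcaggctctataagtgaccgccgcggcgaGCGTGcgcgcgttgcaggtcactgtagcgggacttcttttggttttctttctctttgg

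In these windows DDIT4 has 3 matches to the AHR core, a motif found in 36.5% of the 35116 windows of the table, and 2 CCAAT boxes (34.6% of windows). CYP1A1 has the AHR core at -57 from the start site and a TATA box at -32, the latter found in 11.5% of windows. BHLHE40 has an E-box at -245, which 7.26% of windows hold. HSPA1A has a heat shock element core at -106 (6.77% of windows), a TATA box at -30 and 2 CCAAT boxes. ID1 and ID3 each have 2 AHR cores. Among the 11169 tested genes with a window the AHR core was in 49.4%, the CCAAT box in 36.5% and the E-box in 10%. The TATA box was in 5.93% of them and the heat shock element core in 4.69%. These are letter matches only, and binding was not measured. IER3, CYP24A1 and PAQR8 have no entry and are named only.

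Before the gene groups, the share of all tested genes called higher (11.1%) or lower (10.8%) is given as a background for each count. Calls were more frequent among abundant and protein-coding genes, so this background is low for lists of such genes. Of the 4543 most abundant genes 33.6% were called (891 higher, 637 lower), and of protein-coding genes 27.1%. Lists were not matched to genes of like abundance. A share above 11.1% or 10.8% therefore does not by itself set a list apart. The 39 lists without the cell type markers hold 767 tested genes, of which 347 were called and 251 of those were called in every alternative that tested them. Exons of 277 of the 767 (36.1%) overlap an annotated gene on the other strand, and the counts of such genes may hold reads of the partner. Where no member of a list was called in a direction, DESeq2 and limma voom called none either. At an unadjusted edgeR p under 0.05 these counts were 0 as well, except for 1 AP-1 subunit and 3 bile acid genes on the lower side and 1 Wnt target on the higher side.

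The inhibitors of BMP-SMAD signalling and the ID genes fell nearly as a block. As background, BMP receptors activate SMAD1 and SMAD5, which induce the ID genes, whose proteins block basic helix-loop-helix factors, together with inhibitors that close the loop: SMAD6, SMAD7 and the decoy receptor BAMBI. Of 14 tested members 11 were lower and 1 higher at 360 min, and the median log2 fold change of the list was -0.80, against -0.0048 over all genes tested. ID1 was at 168, 163 and 159 CPM at 30 min and 60.4, 62.4 and 63.2 CPM at 360 min (-1.40 ± 0.035, edgeR adjusted p = 1.47e-07). ID3 was at 79.9, 84.4 and 87.9 CPM and 29.01, 28.7 and 32.8 CPM (-1.48 ± 0.059, edgeR adjusted p = 2.35e-06). For both paralogs the times were far apart. ID2 fell less, by 0.61 from 87.9, 104 and 88.8 CPM to 59.5, 58.7 and 65.95 CPM, and the low ID4 by 1.42 from 1.38 ± 0.443 CPM to 0.518 ± 0.0403 CPM (SD, n = 3).

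Among the inhibitors SMAD7 went from 25.7, 25.7 and 25.003 CPM to 11.7, 12.3 and 11.5 CPM (-1.11 ± 0.052). SMAD6 fell by 0.73 from 14.8, 14.5 and 13.5 CPM to 8.97, 7.58 and 9.17 CPM. BAMBI fell by 1.07 from 45.7, 42.9 and 42.7 CPM to 21.5, 21.2 and 19.7 CPM. SMAD9, a SMAD of the same branch, fell by 0.87 from 6.295 ± 0.549 CPM to 3.43 ± 0.288 CPM. The corepressor SKI fell by 0.21, and its relative SKIL by 0.59, a call lost when any library but 30 min replicate 1 was left out. HAMP, which encodes hepcidin and is a BMP target in liver, was low throughout, at 0.51, 0.377 and 0.337 CPM at 30 min and 0.0293, 0.0595 and 0.0951 CPM at 360 min, with no overlap. TGIF1, a corepressor of the TGF-beta branch, was the 1 member called higher (0.22 ± 0.065), and the call was lost when any library but 30 min replicate 2 was left out. The ubiquitin ligases SMURF1 (-0.14 ± 0.046) and SMURF2 (-0.036 ± 0.039) did not pass, and SMURF1 did without 30 min replicate 2.

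Targets of Wnt and beta-catenin were lower too. HepG2 carries an activating deletion in the beta-catenin gene, so these genes are on in this line without ligand. Of 15 tested members 10 were lower and none higher (median -0.32), and all 10 were called in every alternative. NKD1, a feedback inhibitor, went from 305, 306 and 319 CPM to 195, 184 and 188 CPM (-0.71 ± 0.035). NKD2 fell by 0.60, the feedback scaffold AXIN2 by 0.33 from 77.2, 72.6 and 75.2 CPM to 59.6, 58.7 and 60.7 CPM, and the Wnt deacylase NOTUM by 0.39. The ubiquitin ligase RNF43 fell by 0.26 and its paralog ZNRF3 stood at 0.047 ± 0.038, which did not pass. Among the effectors MYC was at 152, 154 and 149 CPM at 30 min and 102, 106 and 105 CPM at 360 min (-0.54 ± 0.03), and the cyclin CCND1 fell by 0.32 from 247, 242 and 255 CPM to 202, 191 and 202 CPM. The transcription factors TBX3 (-0.47), SP5 (-0.38) and TCF7 (-0.31) fell as well. LGR5 (-0.17 ± 0.059), GLUL (0.083 ± 0.033) and DKK1 (-0.04 ± 0.052) did not pass, and LGR5 did with DESeq2 and without 30 min replicate 1.

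Among immediate early genes both directions occurred. Of 9 tested members of the EGR, KLF and NR4A families 4 were lower and none higher. KLF11 fell by 1.11 from 15.6, 15.5 and 14.7 CPM to 7.504, 7.19 and 6.63 CPM, KLF10, which TGF-beta induces, by 0.46 from 27.7, 26.8 and 23.3 CPM to 17.7, 19.9 and 19.1 CPM, and the low KLF4 by 1.42 from 1.35 ± 0.149 CPM to 0.481 ± 0.186 CPM. KLF6 moved by -0.17 ± 0.043, a call lost with all 12 libraries in 1 fit and in every omission of a single library but that of 30 min replicate 3. EGR1 was at 6.45, 9.98 and 4.72 CPM at 30 min and 8.75, 8.77 and 10.5 CPM at 360 min, and NR4A1 at 14.2, 12.7 and 12.4 CPM and 13.1, 14.03 and 14.7 CPM, and neither passed, although EGR1 was called higher without 30 min replicate 2.

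Of 11 tested AP-1 subunits 6 were higher and none lower, and without 30 min replicate 1 the count was 3. MAFG rose by 0.51 ± 0.047 and MAFF by 0.53 ± 0.082, both small MAF proteins that pair with NRF2 and other CNC factors, and these were the only 2 called in every alternative. JUNB rose by 0.44 ± 0.10 from 9.11, 10.5 and 8.88 CPM to 12.3, 11.8 and 14.4 CPM but was not called without 30 min replicate 1. FOS was at 3.11, 3.53 and 2.22 CPM at 30 min and 1.59, 2.94 and 1.79 CPM at 360 min, and FOSB, ATF3 and JUN also had log2 fold changes below 0 (-0.31, -0.38 and -0.17) that did not pass. FOS was called lower without 360 min replicate 2. With a term for the high or low mitochondrial share 1 AP-1 subunit was called lower. Of 10 IER, BTG and ZFP36 genes 4 were higher, all in every alternative: IER3 and BTG2, given above, and the mRNA decay factors ZFP36 (0.58 ± 0.10, from 6.19, 7.12 and 7.02 CPM to 9.55, 9.75 and 11.1 CPM) and ZFP36L1 (0.45 ± 0.094, from 22.8, 27.6 and 24.2 CPM to 33.0003, 30.5 and 38.4 CPM). Their paralog ZFP36L2 stood at 0.16 ± 0.064 and did not pass.

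Feedback genes of the ERK pathway went both ways. The ERK phosphatase DUSP6 went from 56.4, 67.5 and 60.6 CPM to 106, 108 and 114 CPM (0.83 ± 0.062), SPRY4 from 22.1, 22.97 and 21.3 CPM to 31.1, 32.4 and 35.1 CPM (0.57 ± 0.057) and SPRY1 from 14.2, 15.8 and 16.04 CPM to 24.5, 22.7 and 24.8 CPM (0.65 ± 0.064). The Sprouty proteins dampen receptor signals to ERK, and their paralog SPRY2 stood at 0.092 ± 0.10, which did not pass. DUSP1, an early phosphatase of stress kinases, fell by 0.56 from 13.5, 14.6 and 11.7 CPM to 8.601, 8.295 and 10.04 CPM, a call lost when all 12 libraries shared 1 fit (adjusted p = 0.24). The ETS factors ETV4 (-0.18 ± 0.032) and ETV5 (-0.14 ± 0.039) were slightly lower, and the call of ETV5 was lost when any library but 360 min replicate 3 was left out. In all 4 of 17 tested members were higher and 3 lower.

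Of 8 SGK, PIM and PLK kinases 3 were higher and 3 lower. PIM1, a survival kinase, went from 28.2, 31.2 and 28.8 CPM to 15.4, 13.02 and 14.4 CPM (-1.04 ± 0.071), while PIM2 rose by 0.37 ± 0.092 (not called on omission of 30 min replicate 1 or 2 or 360 min replicate 1 or 3) and PIM3 stood at 0.036 ± 0.049 without passing. SGK1 fell, as given above, SGK2 rose by 0.24 ± 0.048, and SGK3 stood at 0.049 ± 0.046 without passing. PLK2 fell by 0.66 from 7.42, 6.33 and 7.501 CPM to 4.04, 4.85 and 4.63 CPM, and PLK3 rose by 0.42 ± 0.07 from 10.8, 10.2 and 9.804 CPM to 14.4, 13.2 and 13.5 CPM. In the mTORC1 list DDIT4 was far above the other members. CASTOR2, an arginine sensor, fell by 0.59 from 20.7, 18.1 and 18.96 CPM to 12.99, 12.99 and 12.4 CPM, and FNIP1, a partner of folliculin, rose by 0.30 ± 0.043. The list had 4 of 13 members higher and 1 lower, and its higher count was 2 in each fit that lacked 30 min replicate 2, 30 min replicate 3 or a 360 min library. The core genes MTOR (0.0079 ± 0.033) and RPTOR (-0.0036 ± 0.033) did not pass.

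TXNIP, an arrestin that limits glucose uptake, was at 85.3, 84.9 and 81.6 CPM at 30 min and 43.5, 44.1 and 42.6 CPM at 360 min (-0.95 ± 0.035, edgeR adjusted p = 2.28e-06). Its paralog ARRDC4 fell by 0.73 from 18.1, 16.9 and 17.8 CPM to 9.98, 11.5 and 10.5 CPM. Of the glucose transporters SLC2A1 fell by 0.42 from 533, 551 and 567 CPM to 406, 414 and 412 CPM and SLC2A2 by 0.35, while SLC2A3 rose by 0.41 ± 0.042 from 184, 167 and 184 CPM to 240.4, 232 and 239 CPM. In that list 4 of 13 members were higher and 6 lower. The higher count was 2 where 30 min replicate 1, 360 min replicate 1 or 360 min replicate 2 was left out, and 1 without 360 min replicate 3. In the FOXO and insulin list 6 of 17 were higher and 3 lower. Besides CCNG2 and DEPP1, the regulatory subunit gene PIK3R3 rose by 0.61 ± 0.10 from 6.697, 7.501 and 6.29 CPM to 11.1, 9.37 and 10.9 CPM and the receptor IGF1R fell by 0.30 from 135, 133 and 138 CPM to 112, 105 and 113 CPM. FOXO1 (-0.076 ± 0.065), FOXO3 (-0.035 ± 0.043) and IGFBP1 (0.12 ± 0.051) did not pass, and IGFBP1 did without 360 min replicate 3.

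**Figure D3:**
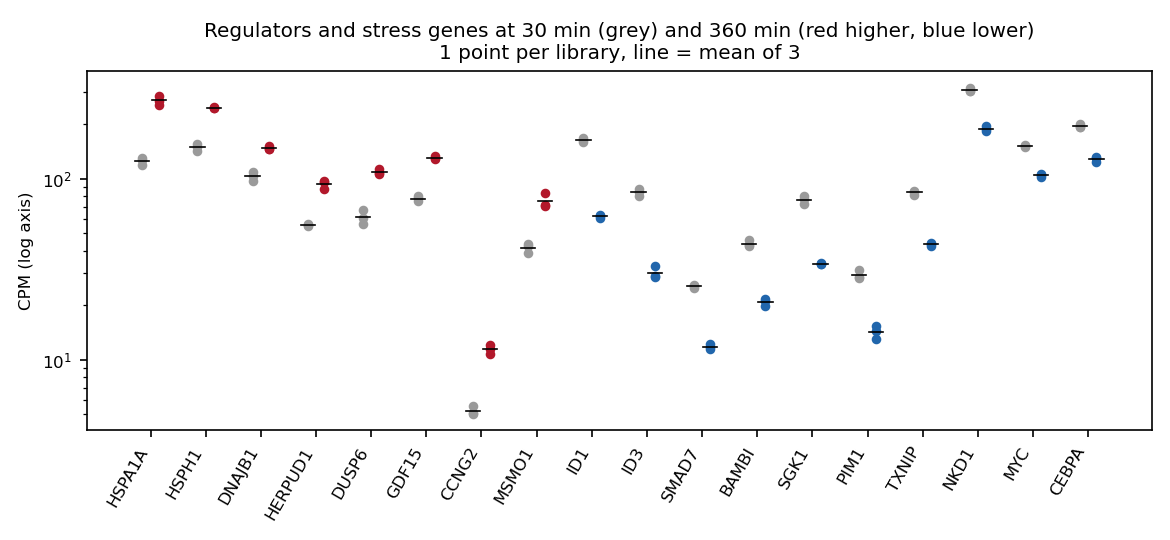
CPM on a log axis (vertical) of 18 regulators and stress genes (horizontal), with 1 point per library, grey for 30 min and red or blue for genes called higher or lower at 360 min, and a line at the mean of 3. No gene drawn has overlapping times: ID1 goes from 159 to 168 CPM down to 60.4 to 63.2 CPM, and HSPA1A from 119 to 131 CPM up to 256 to 287 CPM.

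Cytosolic chaperones were higher at 360 min. As background, heat shock factor HSF1 induces these genes when unfolded protein accumulates, and they fold nascent and damaged proteins. Of 22 tested members 16 were higher and 1 lower (median 0.34). HSPA1A was at 131, 119 and 126 CPM at 30 min and 287, 269 and 256 CPM at 360 min (1.11 ± 0.05, edgeR adjusted p = 4.07e-06). Its near-identical copy HSPA1B moved alike (1.13 ± 0.053), and reads may have been divided between the copies. The constitutive HSPA8 went from 1578, 1649 and 1655 CPM to 2628, 2668 and 2471 CPM (0.67 ± 0.037). The nucleotide exchange factor HSPH1 went from 143, 155 and 151 CPM to 249.01, 245 and 246 CPM (0.72 ± 0.035).

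The J-domain cochaperones rose with them: DNAJB1 by 0.52 ± 0.044 from 97.4, 104 and 109 CPM to 151, 147 and 146 CPM, DNAJA1 by 0.53 ± 0.037 and the low DNAJB4 by 0.91 ± 0.091 from 6.66, 7.43 and 7.28 CPM to 13.3, 14.7 and 12.2 CPM. BAG3, which links chaperones to autophagy, rose by 0.57 ± 0.038, and CHORDC1, an HSP90 cochaperone, by 0.69 ± 0.052. HSP90AA1, the inducible HSP90, rose by 0.29 ± 0.034, and its constitutive paralog HSP90AB1 by 0.13 ± 0.024, a call lost without 360 min replicate 2. HSPB1, a small heat shock protein, was the 1 member lower (-0.29 ± 0.037, from 51.4, 53.7 and 52.9 CPM to 43.6, 43.3 and 42.1 CPM). The mitochondrial chaperones HSPD1 (0.084 ± 0.028) and HSPE1 (0.074 ± 0.068) did not pass, and HSPD1 did with DESeq2, with limma voom and without 30 min replicate 2. The heat shock element core GAANNTTC was in 8 of the 20 promoter windows of this list (40%), against 4.69% of 11169 tested genes with a window. That share was taken over tested members whatever their call, so it does not bear on the change between the times.

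Genes of the endoplasmic reticulum (ER) stress response rose in number but by less. Of 24 tested members 15 were higher and 2 lower (median 0.16), and 9 of the 15 were called in every alternative. HERPUD1, a component of ER-associated degradation, went from 54.9, 55.7 and 56.1 CPM to 95.9, 96.7 and 88.2 CPM (0.75 ± 0.041). DNAJB9, an ER cochaperone, went from 15.1, 18.2 and 17.6 CPM to 31.2, 29.3 and 26.9 CPM (0.78 ± 0.082), and DDIT3, which encodes CHOP, from 6.06, 5.18 and 5.06 CPM to 7.49, 9.01 and 10.1 CPM (0.70 ± 0.13). The sensor kinase gene EIF2AK3 rose by 0.42 ± 0.05 and HSPA5, the main ER chaperone, by 0.23 ± 0.034. XBP1 fell by 0.22 from 306, 313 and 317 CPM to 264, 268 and 272 CPM and ATF6, another sensor, by 0.21. In the ATF4 list 8 of 23 were higher and 2 lower: ASNS, asparagine synthetase, fell by 0.68 from 87.4, 78.6 and 70.8 CPM to 56.6, 55.1 and 36.8 CPM, while the cystine transporter SLC7A11 rose by 0.32 ± 0.054. ATF4 itself (-0.052 ± 0.033), CHAC1 (-0.19 ± 0.22) and PSAT1 (0.11 ± 0.036) did not pass, and PSAT1 did with DESeq2 and limma voom.

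Of 30 proteasome subunit genes 14 were higher and none lower, with small changes (median 0.10). PSMC3 rose by 0.24 ± 0.033, PSMC6 by 0.24 ± 0.033 and PSMD11 by 0.21 ± 0.029, all subunits of the regulatory particle. The count was 9 without 30 min replicate 1, 8 without 30 min replicate 3, 7 without 360 min replicate 1 and 9 without 360 min replicate 2.

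Targets of p53 were higher almost throughout the list. p53 induces genes that stop the cell cycle, repair DNA or start apoptosis, and HepG2 carries wild-type p53. Of 25 tested members 20 were higher and 1 lower (median 0.28), and 15 of the 20 were called in every alternative. CDKN1A, the inhibitor p21 of cyclin-dependent kinases, was at 69.2, 81.2 and 76.9 CPM at 30 min and 94.1, 94.4 and 111 CPM at 360 min (0.40 ± 0.077, edgeR adjusted p = 0.00666). MDM2, the ubiquitin ligase of p53, went from 314, 337 and 333 CPM to 413, 428 and 421 CPM (0.36 ± 0.037). GDF15, a stress cytokine, went from 74.9, 79.9 and 78.2 CPM to 128, 130.04 and 133 CPM (0.75 ± 0.035). The death receptor FAS rose by 0.50 ± 0.068, the phosphatase PPM1D by 0.42 ± 0.051, the repair factor DDB2 by 0.41 ± 0.044, TP53INP1 by 0.47 ± 0.069 and the sestrins SESN1 and SESN2 by 0.33 ± 0.057 and 0.31 ± 0.052. PLK2 was the 1 member lower. BBC3 (0.10 ± 0.093), XPC (-0.078 ± 0.044) and GADD45A (-0.044 ± 0.11) did not pass. BTG2, PLK2, PLK3, SESN1 and SESN2 belong to other lists here as well.

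Genes of the G2 and M phases were higher over the same hours. Of 35 tested members 27 were higher and 2 lower (median 0.22), and 26 of the 27 were called in every alternative. MKI67, a proliferation marker, went from 329, 294 and 304 CPM to 444, 466 and 418 CPM (0.52 ± 0.053). ANLN, a scaffold of cytokinesis, went from 124, 128 and 122 CPM to 165, 171 and 172 CPM (0.44 ± 0.032), and TOP2A, the topoisomerase of mitotic chromosomes, from 406, 435 and 411 CPM to 524, 541 and 543 CPM (0.36 ± 0.037). The kinetochore motor CENPE rose by 0.43 ± 0.054, the transcription factor FOXM1 by 0.35 ± 0.038, the checkpoint kinase BUB1B by 0.32 ± 0.029, the kinase CDK1 by 0.26 ± 0.046 and the cyclins CCNB1 and CCNA2 by 0.18 ± 0.034 and 0.21 ± 0.039. The cyclin paralog CCNB2 stood at 0.012 ± 0.041 and did not pass. CDC25B (-0.16 ± 0.039) and NEK2 (-0.20 ± 0.051) were the 2 members called lower, and neither was called in the fit that lacked 30 min replicate 1, 30 min replicate 3 or 360 min replicate 1, nor CDC25B without 360 min replicate 2 or NEK2 without 360 min replicate 3. The CHR, TTTGAA, was in 19 of 29 promoter windows of this list (65.5%), against 9.87% of windows of tested genes. This share, too, was taken over tested members whatever their call.

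DNA replication and G1/S genes moved less uniformly, with 15 of 39 higher and 4 lower (median 0.08). Enzymes of nucleotide supply and joining were among the higher ones. The thymidylate synthase gene TYMS went from 238, 255 and 251 CPM to 330.3, 338 and 338 CPM (0.44 ± 0.035), the ribonucleotide reductase subunits RRM1 and RRM2 rose by 0.36 ± 0.035 and 0.39 ± 0.039, and the ligase LIG1 by 0.43 ± 0.036. Of the E2F factors the activators E2F1 and E2F2 fell, by 0.23 and 0.43, while the repressors E2F7 and E2F8 rose by 0.36 ± 0.064 and 0.40 ± 0.059. E2F2 stood at 45.2, 42.1 and 44.3 CPM at 30 min and 32.02, 32.6 and 33.03 CPM at 360 min, and E2F8 at 17.5, 17.4 and 16.5 CPM and 21.3, 23.9 and 23.2 CPM, with no overlap in either. Of the replicative helicase MCM7 (0.24 ± 0.031) and MCM2 (0.17 ± 0.038) rose, and MCM3, MCM4, MCM5 and MCM6 lay between -0.051 and 0.089 without passing. The E2F motif TTTCCCGC was in 10 of 33 windows of the list (30.3%, against 2.48% of tested genes) and TTTGGCGC in 7 (21.2%, against 1.07%). Both shares were taken over tested members whatever their call.

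**Figure D4:**
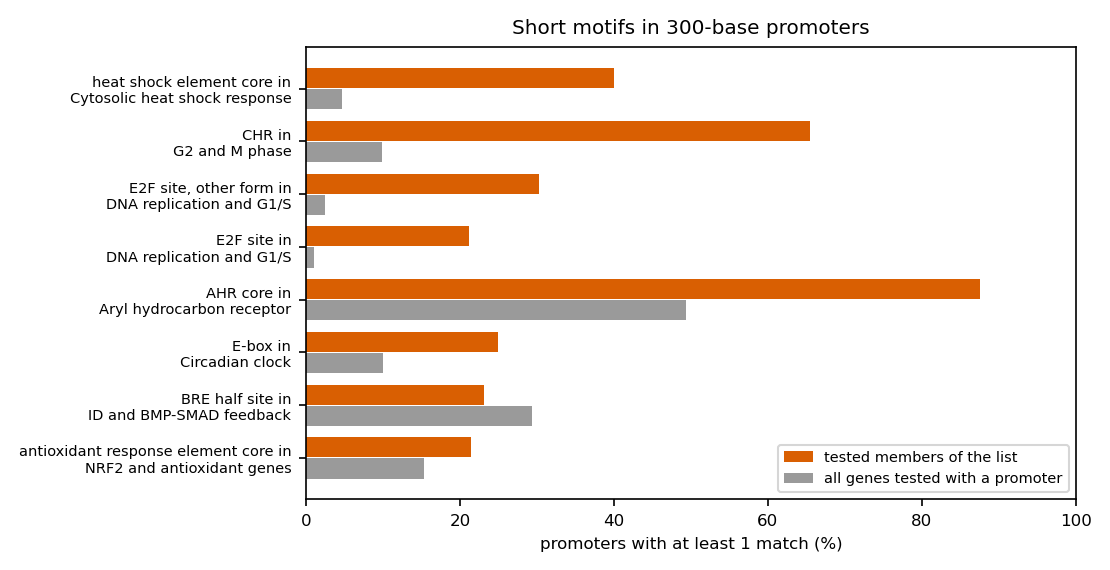
Share of 300-base promoter windows with at least 1 match to a motif (horizontal axis, %), for the tested members of a gene list (orange) and for all tested genes with a window (grey). The heat shock, mitotic and replication lists hold their motif in 40%, 65.5% and 21.2 to 30.3% of windows. GGCGCC, a short part of the BMP-SMAD element, is in 23.1% of windows of the ID and BMP list and in 29.3% of all. The windows reach 250 bases before the start site, and elements further upstream were not searched. Members were counted whatever their call, so these shares do not bear on the change between the times.

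Of 19 tested CLK kinases, SR splicing factors and partners 11 were higher, CLK1 by the most, and 2 lower. Of the 11, 7 were called in every alternative, and without 360 min replicate 1 the higher count was 7. CLK4 went from 10.4, 11.4 and 10.6 CPM to 18.2, 21.4 and 18.4 CPM (0.84 ± 0.079), CLK3 rose by 0.36 ± 0.036 and CLK2 by 0.23 ± 0.053, so that all 4 CLK paralogs were called higher, though CLK2 lost the call on omission of 30 min replicate 1 or 2 and of 360 min replicate 1 or 3. SRSF2 went from 245, 261 and 263 CPM to 349, 357 and 345 CPM (0.45 ± 0.036) and SRSF3 from 298, 306 and 298 CPM to 397, 391 and 377 CPM (0.37 ± 0.033). SRSF5 fell by 0.38 from 198, 197 and 185 CPM to 153, 147 and 145 CPM and SRSF6 by 0.28 from 370.2, 373 and 365 CPM to 297, 311 and 305 CPM. SRSF7 (0.049 ± 0.031), SRSF10 (0.0063 ± 0.029) and SRPK1 (0.039 ± 0.038) did not pass.

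Cholesterol genes were divided within the pathway. SREBP2 induces genes of sterol synthesis and uptake when sterol is low. Of 25 tested members 10 were higher and 8 lower, and the median was near 0. MSMO1, a sterol oxidase, was at 39.04, 43.3 and 42.2 CPM at 30 min and 70.4, 71.3 and 83.2 CPM at 360 min (0.85 ± 0.069, edgeR adjusted p = 0.000111). SQLE rose by 0.53 ± 0.045, the sterol carrier STARD4 by 0.66 ± 0.049, IDI1 by 0.44 ± 0.049 and HSD17B7 by 0.51 ± 0.053. In the other direction DHCR7, the enzyme of the last step, went from 154, 158 and 154 CPM to 119, 119 and 127 CPM (-0.35 ± 0.036) and FDFT1, squalene synthase, fell by 0.38. MYLIP, a ubiquitin ligase induced by sterols through LXR, fell by 0.80 from 10.6, 11.1 and 9.66 CPM to 6.0998, 6.09 and 5.87 CPM, and SREBF2 itself by 0.20. All 10 higher and 7 of the 8 lower calls held in every alternative.

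Fatty acid and triglyceride synthesis leaned downward, with 10 of 19 lower and 3 higher (median -0.16). ACSS2, which makes acetyl-CoA from acetate, went from 77.3, 74.6 and 76.02 CPM to 47.96, 50.8 and 51.1 CPM (-0.61 ± 0.037). DGAT2, which forms triglyceride, fell by 0.44 from 71.02, 69.8 and 68.1 CPM to 50.4, 51.4 and 52.1 CPM, whereas DGAT1, an unrelated enzyme of the same step, rose by 0.31 ± 0.05. The desaturase SCD fell by 0.29 and the synthase FASN by 0.18. LPIN1 (0.34 ± 0.057) and PNPLA3 (0.33 ± 0.053) were higher. SREBF1 (-0.045 ± 0.043) and ACACA (-0.08 ± 0.03) did not pass. Of 16 genes of fatty acid oxidation 1 was higher, EHHADH (0.35 ± 0.047), and 3 were lower, among them CPT1A (-0.25 ± 0.033), and the lower count was 1 without 30 min replicate 1.

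Of 9 tested AHR genes 1 was higher, CYP1A1, and 3 were lower. AHR itself fell by 0.40 from 64.2, 72.9 and 66.6 CPM to 49.8, 52.4 and 52.7 CPM, NQO1 by 0.17 and ALDH3A1 by 0.48 (not called without 360 min replicate 1), and TIPARP, another AHR target, stood at 0.11 ± 0.07 and did not pass. AHRR, the repressor of the receptor, was low at 0.225, 0.131 and 0.562 CPM and 0.263, 0.357 and 0.333 CPM and did not pass. Of 24 phase I and II genes 4 were higher and 3 lower. Besides CYP1A1, CYP3A7 and CYP24A1, the sulfotransferase SULT2A1 rose by 0.45 ± 0.051 from 38.6, 36.5 and 34.7 CPM to 49.3, 52.6 and 48.2 CPM and the xenobiotic receptor NR1I2 fell by 0.34 from 27.5, 27.1 and 27.5 CPM to 21.2, 22.2 and 21.6 CPM. Of the antioxidant genes under NRF2 3 of 22 were higher and 6 lower. HMOX1, heme oxygenase, was at 87.5, 90.8 and 91.5 CPM at 30 min and 54.2, 52.7 and 54.8 CPM at 360 min (-0.74 ± 0.034). The higher count was 1 without 30 min replicate 1 or 3, without 360 min replicate 1 or 2, and with total-count scaling. GCLM (0.14 ± 0.067) and TXNRD1 (-0.033 ± 0.034) did not pass.

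Targets of YAP and of the actin-sensing factor SRF were mostly lower, 7 of 17 against 2 higher. TAGLN, an actin-binding protein, went from 126, 129 and 131 CPM to 82.6, 84.7 and 79.8 CPM (-0.64 ± 0.034). CCN2, a matricellular growth factor, went from 239.6, 239 and 239 CPM to 182, 189.6 and 178 CPM (-0.38 ± 0.032). CCN1 fell by 0.54, a call lost when all 12 libraries shared 1 fit (adjusted p = 0.22). AJUBA (0.49 ± 0.038) and VCL (0.17 ± 0.033) were higher. Of 15 NF-kB genes 6 were higher, all in every alternative, and 1 lower. CCL20, a chemokine, went from 83.9, 83.7 and 77.6 CPM to 149, 143 and 140.1 CPM (0.82 ± 0.041), TNFAIP3, the feedback inhibitor A20, rose by 0.31 ± 0.044, and TNFAIP2 fell by 0.92. NFKBIA (-0.036 ± 0.048) and ICAM1 (0.0042 ± 0.028) did not pass. The lower count was 2 without 30 min replicate 2 and with all 12 libraries in 1 fit.

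Clock genes, hypoxia genes and the identity genes of the liver changed in part. Of 18 clock genes 6 were higher and 3 lower. After BHLHE40, PER1 rose by 0.43 ± 0.055 from 14.2, 13.7 and 13.6 CPM to 19.3, 18.2 and 18.6 CPM, PER2 by 0.36 ± 0.061 and NFIL3 by 0.35 ± 0.054, while NPAS2 fell by 0.24. The core factors ARNTL (-0.14 ± 0.10) and CLOCK (0.015 ± 0.043) and the paralog PER3 (-0.091 ± 0.11) did not pass. Of 23 hypoxia genes 8 were higher and 4 lower. ANKRD37 rose by 1.03 ± 0.13 from 2.19, 2.63 and 2.11 CPM to 5.19, 4.28 and 4.73 CPM, adrenomedullin (ADM) by 0.54 ± 0.085 and VEGFA by 0.26 ± 0.039, whereas EPAS1, which encodes HIF-2 alpha, fell by 0.36. CA9 (-0.23 ± 0.086), PDK1 (-0.016 ± 0.036) and BNIP3 (-0.056 ± 0.029) did not pass, and CA9 did without 360 min replicate 1.

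Of 20 hepatocyte transcription factors 5 were higher and 3 lower, and the higher count was 3 without 360 min replicate 1. CEBPA, a factor of the differentiated hepatocyte, went from 194, 202 and 193 CPM to 131, 124 and 131 CPM (-0.61 ± 0.034). HNF4A went from 261, 265 and 276 CPM to 336, 331 and 339.8 CPM (0.33 ± 0.033), FOXA2 from 27.2, 25.9 and 26.8 CPM to 37.8, 37.97 and 39.4 CPM (0.53 ± 0.041) and the bile acid receptor NR1H4 from 7.15, 8.39 and 6.74 CPM to 12.4, 11.8 and 11.6 CPM (0.68 ± 0.095). FOXA1 stood at 0.0094 ± 0.093 and did not pass. Of 10 bile acid and FGF19 genes 3 were higher and none lower. KLB, the coreceptor of FGF19, rose by 0.56 ± 0.045 from 40.2, 40.96 and 40.9 CPM to 56.2, 61.6 and 62.1 CPM. Of 36 secreted plasma proteins 6 were higher and 4 lower, all by less than 0.25 on the log2 scale. Albumin (ALB) moved by 0.11 ± 0.028 and was not called when 30 min replicate 1 or any 360 min library was left out. The higher count of these genes was 1 without 360 min replicate 2, 2 without 360 min replicate 1 and 3 without 30 min replicate 3 or 360 min replicate 3, and the lower count was 2 where 30 min replicate 3 or 360 min replicate 1 was left out. Of 11 zinc and metallothionein genes 3 were higher and 3 lower, with the zinc exporter SLC30A1 going from 55.9, 59.6 and 58.2 CPM to 34.2, 35.7 and 32.9 CPM (-0.76 ± 0.044).

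None of 36 cytosolic ribosomal protein genes was called, with a median of -0.03. None of 13 mitochondrial mRNAs was called. Their median was -0.30, and it ran from -0.65 without 360 min replicate 3 to -0.033 with a term for the mitochondrial split. With that term MT-ND5 was called higher and MT-ND1 and MT-ND2 lower, and with the replicate block MT-ND1 was called lower. Their summed level spread from 20500 to 32700 CPM at 30 min and from 18600 to 33000 CPM at 360 min beside the mitochondrial shares given above, and the edgeR test called MT-ND1 and MT-ND2 lower without 360 min replicate 3 and MT-ND2 without 30 min replicate 1. Of 30 nuclear genes of the respiratory chain 3 were higher and none lower, of 31 genes of ribosome biogenesis and the MYC network 5 were higher and 2 lower, and of 26 genes of glucose metabolism 5 were higher and 3 lower. These counts were small and moved with single libraries: the 3 of the respiratory chain were 1 without 30 min replicate 1 or any 360 min library, the 5 of ribosome biogenesis were 2 or 3 without any library but 360 min replicate 2, and the 3 lower of glucose metabolism were 1 without 360 min replicate 1. In the MYC network the fall of MYC stood beside a rise of its antagonist MXD1 (0.75 ± 0.11, from 8.84, 11.9 and 10.1 CPM to 16.1, 17.01 and 18.5 CPM), and MXI1, another antagonist, fell by 0.35. Of 29 autophagy and lysosome genes 4 were higher (2 where 30 min replicate 3, 360 min replicate 1 or 360 min replicate 3 was omitted) and 3 lower (1 without 360 min replicate 2). The share called in either direction was 24.1% in this list and 22.6% in that of ribosome biogenesis and MYC. It was 25% in the list of fatty acid oxidation. These shares lay near the 21.9% of all genes tested. Of 16 snoRNA hosts and nuclear RNAs 4 were higher and 4 lower: SNHG3 fell by 0.46 and SNHG1 by 0.36, and SNHG12 rose by 0.41 ± 0.053. With the mitochondrial split as a term 7 were lower, and with the replicate block 7 were lower and 5 higher.

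**Figure D5:**
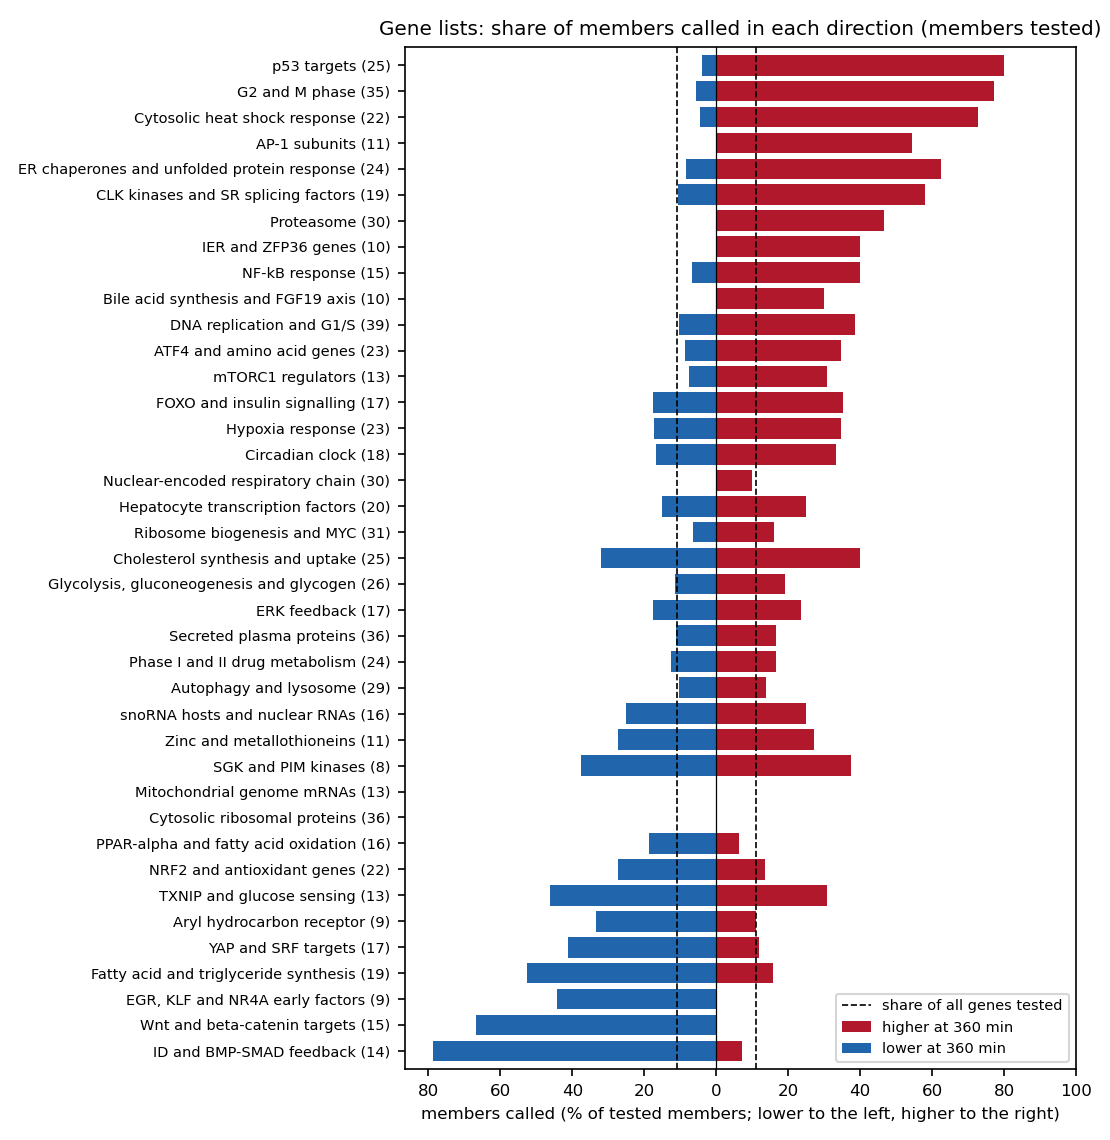
Share of tested members called higher (red, to the right) or lower (blue, to the left) at 360 min. Each of 39 gene lists is a row (vertical axis, tested members in brackets). Dashed lines mark the 11.1% and 10.8% of all tested genes and are not matched to the abundance of list members. The p53, G2 and M phase and heat shock lists reach furthest to the right and the ID and BMP and Wnt lists furthest to the left, while cholesterol genes reach far in both directions.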

How the data were processed

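The authors' deposited table, per the file headers, holds read counts as whole numbers for 60612 gene identifiers in 12 libraries. HISAT2, DESeq2 and GRCh38 were used, per the submitters' processing notes; for their versions, the counting program, the annotation and strandedness, the answer is not given in the sources used here. Only the 6 columns of 30 and 360 min, named by sample title, entered the fit. Of the identifiers, 96.34% matched GENCODE release 29.

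The deposited counts went into edgeR 4.0.16 (R 4.3.3): filterByExpr, TMM scaling and a quasi-likelihood model with 4 residual degrees of freedom and a biological coefficient of variation of 9.32%. Fold changes are log2 of 360 min over 30 min. Their SE was derived from the test, as the absolute log2 fold change divided by the square root of the quasi-likelihood F statistic. Tests are two-sided, and calls needed an adjusted p (Benjamini-Hochberg over all 18172 genes tested) under 0.05. The labels call the replicates biological, without naming separate cultures. Counts of replicates differed beyond sampling noise (chi-square per gene of at least 7.41). A count of 0 allows up to 3 counts, or 0.0359 to 0.0897 CPM, for counting error only. The steps were tested on simulated data.

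Genes named are the 20 largest changes in each direction (called, mean log2 CPM of at least 1, no overlap between the times), up to 8 members of a list by smallest p, and paralogs and further core members beside them, the latter chosen after their values had been seen. The members and lists were chosen with earlier results of these data known. Alternatives were RLE and total-count scaling, DESeq2 1.42.0, limma 3.58.1 voom, no filter or a stricter one (CPM of at least 1 in 3 libraries and 100 counts), all 12 libraries, a replicate block, a term for the mitochondrial split, thinning to the smallest total, omission of each library and other thresholds.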

Additional observations from a re-analysis of the deposited data

How the results depend on the processing

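The 3978 calls (2010 higher, 1968 lower) ranged from 2549 to 3278 with 1 library left out (1283 to 1711 higher, 1266 to 1567 lower). The lowest counts came without 360 min replicate 1 (2549, with 1283 higher and 1266 lower) and without 360 min replicate 2 (2624, with 1325 higher and 1299 lower). At an adjusted p under 0.01 there were 1892 calls (956 higher, 936 lower), and with an absolute log2 fold change of at least 0.5 added there were 868 (335 higher, 533 lower), by construction of these thresholds. Other scalings, tools, filters and terms gave 3333 to 4309 calls. In each of these settings every call shared with the main test had the same sign, and no gene of the lists or of the 40 largest changes reversed its sign while called. Replicate numbers gave no clear pairing of the libraries. Deviations of same-numbered libraries correlated at 0.121, -0.00333 and 0.0248, and those of different numbers at -0.0886 to 0.0527. Not every library correlated best with its own number, though the highest value was that of the 2 replicates numbered 1. With 3 libraries a time these values cannot exclude a pairing. The replicate block gave 4309 calls, among them 2 ribosomal protein genes lower. Medians of lists near 0 (AHR, cholesterol, NF-kB, NRF2, plasma proteins, phase I and II, respiratory chain, autophagy) changed sign in 1 to 11 of 16 alternatives, and that of the zinc list without 360 min replicate 1 (-0.046). With 3 libraries a time and as few as 33439181 counts, 5.66% of the 4543 least abundant genes were called, so their lack of a call carries little.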

Other observations

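Gene families outside the lists, chosen by symbol after the values had been seen, are given as counts. Of 33 kinesins (KIF), the motors of spindle and transport, 13 were higher and 6 lower at 360 min by the edgeR test, or 57.6% called against 21.9% of all genes tested. Some of these kinesins are also members of the G2 and M phase list. The 21.9% is not matched to the abundance of the members of a family. Of 26 lysine demethylases and methyltransferases of histones (KDM and KMT) 10 were higher and 3 lower. RNA-binding motif genes (RBM) had 8 of 37 higher and none lower (21.6% called, near that of all genes), DEAD-box helicases 13 of 49 higher and 4 lower, and importins 7 of 24 higher and 3 lower. Integrin genes had 5 of 17 lower and none higher (median log2 fold change -0.27). Transmembrane proteins of the TMEM series had 28 of 180 lower and 11 higher (21.7% called, near the 21.9% of all genes tested). Solute carriers had 48 of 260 lower and 35 higher. Zinc finger genes of the ZNF series had 55 of 420 higher and 29 lower, or 20% called. Of 19 replication-dependent histone genes 1 was called, lower, in RNA that had been selected for poly(A) tails.

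The frequency of the 13 short promoter motifs in genes called higher and in those called lower is given here as description without a test. The genes were not matched by abundance. The CCAAT box was in 43.2% of the 1524 windows of genes called higher, 30.5% of the 1397 of genes called lower and 36.5% of the 11169 of all tested genes. TGACG was in 39.3%, 27.3% and 33.3%, and the E-box in 13.1%, 8.95% and 10% of these windows. The AHR core, which CYP1A1 and DDIT4 both hold, was in 50.4%, 46.2% and 49.4%. The CHR was in 13.3%, 7.44% and 9.87%, the heat shock element core in 5.91%, 3.29% and 4.69%, and TGACNNNGC in 17.3%, 14.7% and 15.3%. TTTGGCGC was in 1.51%, 0.644% and 1.07%, TTTCCCGC in 2.95%, 1.65% and 2.48%, and TGACGTCA in 3.81%, 2.65% and 3.14%. Other motifs were more frequent in genes called lower. GGCGCC was in 29.5%, 33.7% and 29.3%, the AP-1 site in 3.94%, 5.01% and 4.75%, and the TATA box in 5.45%, 5.87% and 5.93%.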
